A study of Mus musculus with 18 samples.

Results

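The 18 mouse hippocampus arrays of this series were divided by the signal of Calml4, a transcript of choroid plexus epithelium. The arrays were chosen by this measured value: an array was called low where its deposited Calml4 signal was under 100 and high otherwise. This put 5 of 18 arrays in the low set and 13 in the high set. The study profiled aged mice with impaired spatial memory, aged mice with unimpaired spatial memory and young mice, which the labels also call unimpaired, with 6 samples in each group. The sources used here give no genotype, strain, sex, age or batch, and the labels name no treatment for any group. Nor do they tie a sample to an animal of its own, so p-values measure only the spread between these samples, which may be partly technical. Of the 5 low arrays, 1 was from the aged impaired group, 3 were from the aged unimpaired group and 1 was from the young group. The share of low arrays did not differ detectably over the 3 groups (exact Fisher-Freeman-Halton test, 2-sided, p = 0.527).

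The choroid plexus is a folded sheet of epithelium inside the brain ventricles. Its epithelial cells make cerebrospinal fluid by moving ions and water across the sheet, and they secrete carrier proteins such as transthyretin into that fluid. The sheet is sealed by tight junctions, rests on a vascular core with fibroblasts and macrophages, and continues into the ciliated ependyma that lines the ventricle. The choroid plexus of the lateral ventricle lies beside the hippocampus, so a dissected hippocampus can carry a piece of it.

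Of the measures taken over whole arrays, the median signal moved with the split. The deposited median signal was 23.5 to 26.4 in the low arrays and 25.8 to 30.5 in the high arrays, and 2 low arrays lay below every high array. A 3' to 5' log2 ratio of control transcripts, a measure of RNA quality, was 0.268 to 0.413 in the low arrays and 0.205 to 0.425 in the high arrays, so these ranges overlapped. Transcripts of hippocampal neurons were measured in every array: the mean log2 value of CA1 pyramidal neuron genes lay between 11.1 and 11.6, and that of dentate granule neuron genes between 9.35 and 9.97, with no other tissue to compare them with. The part of the deposited median in the results below was not tested.

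Calml4 encodes a calmodulin-like light chain of the brush border. Its signal was 43.0, 53.0 and 62.8 in aged unimpaired replicates 4, 5 and 3, 49.8 in young replicate 6 and 71.2 in aged impaired replicate 5. The high arrays ran from 141.3 in young replicate 2 through a median of 253.3 to 457.3 in aged impaired replicate 3. The threshold therefore fell in an empty interval between 71.2, just below it, and 141.3, just above it. Calml4 chose the arrays, and every transcript of the same arrays was compared across the same division, so the low minus high differences here are descriptions with standard errors and carry no test. They come from a limma fit with the 3 groups as a covariate, on the log2(scaled signal + 16) scale, where the added 16 shrinks the differences of dim transcripts.

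Ttr encodes transthyretin, the thyroxine and retinol carrier of cerebrospinal fluid. Its signal was 2451.7, 5450.7 and 6064.3 in aged unimpaired replicates 4, 3 and 5, 4968.3 in aged impaired replicate 5 and 5744.3 in young replicate 6. The 13 high arrays ran from 13074.6 through a median of 17900.7 to 27225.9, so the low and the high arrays did not overlap. Dividing the arrays at the widest gap in Ttr, 1.11 on the log2 scale, gave the same 5 low arrays. Aqp1, the water channel of the apical epithelial membrane, had signals of 6.8, 7.6 and 21.4 in aged unimpaired replicates 4, 3 and 5, 6.9 in aged impaired replicate 5 and 15.4 in young replicate 6. In the high arrays Aqp1 ran from 36.4 through 100.8 to 211.0, again without overlap. The fitted high to low ratio was 4.42-fold for Calml4, 3.71-fold for Ttr and 7.49-fold for Aqp1, and the log2 differences were -2.14 ± 0.26, -1.89 ± 0.23 and -2.91 ± 0.39 (SE; 5 low and 13 high arrays, as throughout). Aqp1 was dim on the low arrays, and its difference was -3.38 with an offset of 1 and -2.12 with one of 64. Calml4 separates these arrays by the rule itself, and Ttr and Aqp1, the other two marker genes, separated the same arrays.

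**Figure D1:**
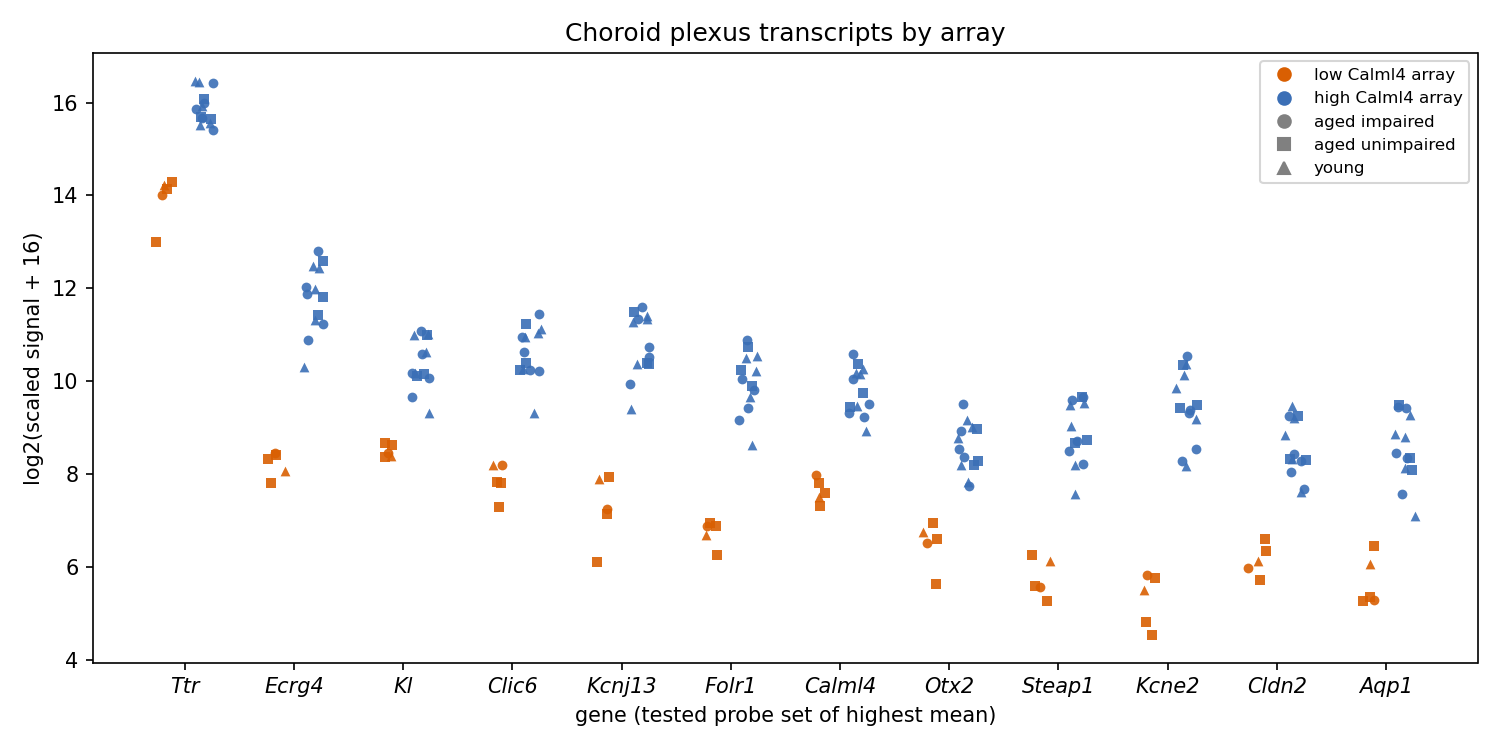
Log2(scaled signal + 16) of 12 choroid plexus transcripts on each array, with genes on the horizontal axis, the 5 low Calml4 arrays in orange, the 13 high arrays in blue and the marker shape giving the group. For each of these genes every low array lies below every high array, as for Ttr, where the highest low array has a deposited signal of 6064.3 and the lowest high array one of 13074.6.

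The homeobox factor Otx2, which is needed to form the choroid plexus, was lower in the low arrays, as were Calml4, Aqp1 and Pon1. Calml4 and Aqp1 are marker genes. Pon1 is no neutral choice, as it is 1 of only 2 of the lower genes with a match to the letters marked below. Shown here are the sequences before the start sites of Calml4, Aqp1 and Pon1. They are the 250 bases upstream of the RefSeq start in GRCm38.p6, written 5' to 3' on the gene's strand, and capitals mark the letters TAATCC, the core bound by Otx2-type homeodomains, or their reverse GGATTA. The windows lie upstream of the first exon, at chr9:62857854-62858103 on the plus strand for Calml4, chr6:55336049-55336298 on the plus strand for Aqp1 and chr6:5193947-5194196 on the minus strand for Pon1.
Calml4: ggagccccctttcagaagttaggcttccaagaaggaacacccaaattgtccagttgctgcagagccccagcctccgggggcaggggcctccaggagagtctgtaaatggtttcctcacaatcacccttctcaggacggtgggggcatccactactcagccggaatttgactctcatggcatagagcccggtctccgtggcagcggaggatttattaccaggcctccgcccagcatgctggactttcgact
Aqp1: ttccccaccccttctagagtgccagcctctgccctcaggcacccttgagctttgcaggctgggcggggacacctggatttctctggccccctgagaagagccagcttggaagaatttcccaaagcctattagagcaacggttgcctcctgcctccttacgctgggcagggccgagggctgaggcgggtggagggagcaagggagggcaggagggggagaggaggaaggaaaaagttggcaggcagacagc
Pon1: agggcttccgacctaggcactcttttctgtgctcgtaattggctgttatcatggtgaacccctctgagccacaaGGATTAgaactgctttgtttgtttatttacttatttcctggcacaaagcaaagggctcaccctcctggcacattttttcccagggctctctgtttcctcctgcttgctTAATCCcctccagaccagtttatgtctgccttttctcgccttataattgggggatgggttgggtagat
Pon1 holds 2 matches, and Calml4 and Aqp1 hold 0 in these windows. Of the 42 genes described next as lower in the low arrays, 34 had a promoter in the table and 2 of these held a match on either strand, Pon1 and, at 1 of its 4 starts, Otx2 itself. That is 5.88% of these genes, beside 7.21% of all 27025 genes in the table and 6.25% of its 32851 promoters.

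Across the whole array, few transcripts separated the low from the high arrays, and those that did so by at least 1 log2 unit were all lower in the low arrays. Of 27022 probe sets compared, 64 were lower in the low arrays by at least 1 log2 unit with no low array overlapping a high array, which is 0.237% of them, and 0 were higher by that rule. The 60 of them that carry 1 gene name belong to 46 genes, of which 29 were on the lists of choroid plexus genes used here and 17 were on no list. Counting each gene once, by its probe set of highest mean, 42 of 13121 named genes were past this size, or 0.32%, and 27 of these were choroid genes. Over all named genes the median difference was -0.002. Every low array lay below every high array for 105 probe sets, or 0.389%, and above every high array for 5, or 0.0185%.

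**Figure D2:**
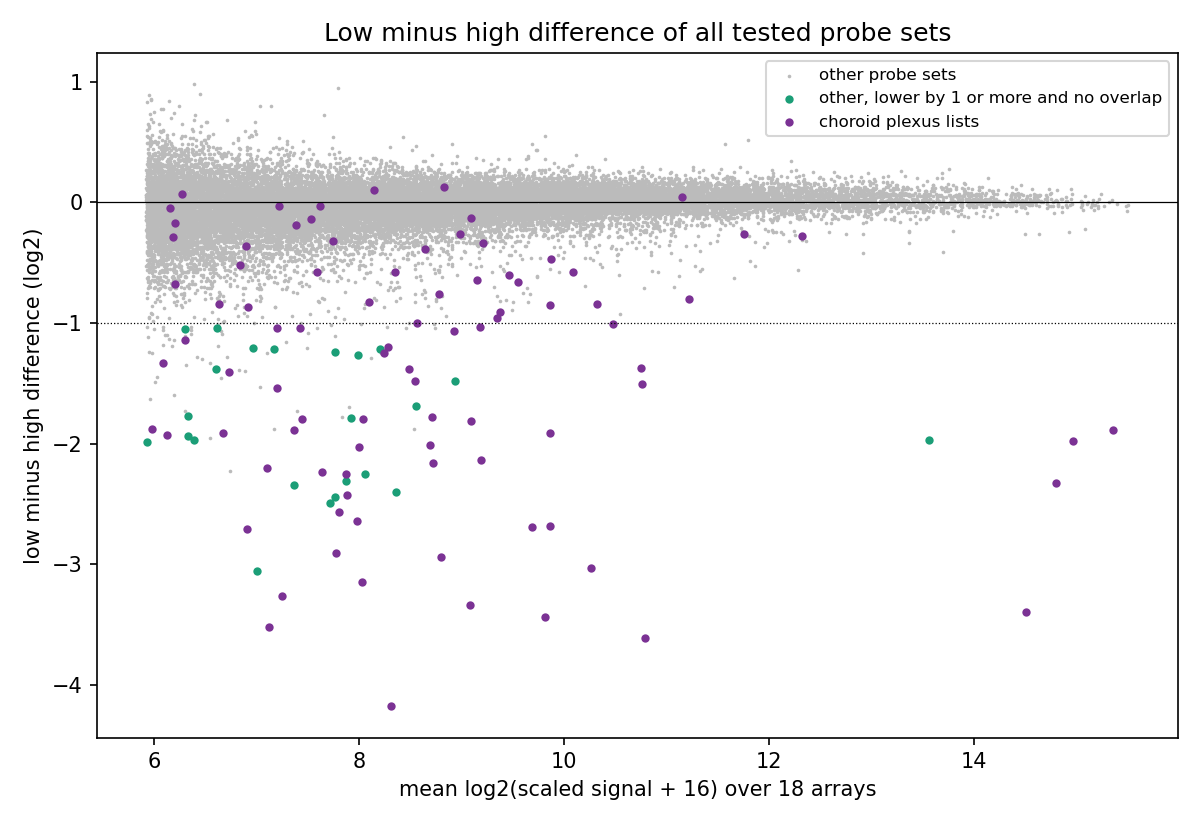
Low minus high difference (log2, vertical axis) against the mean log2(scaled signal + 16) over the 18 arrays (horizontal axis) for the 27022 probe sets, with probe sets of the choroid lists in purple and other probe sets lower by at least 1 with no overlap in green. The purple points spread from near 0 past the dotted line at -1 to -4.18 for Kcne2, while the grey cloud is centred near 0.

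The 5 choroid lists held 64 genes. Of these, 52 had a probe set that passed the filter on low values, 9 had only dimmer probe sets and 3 were not analysed here. A gene that is bright only in the high arrays passes that filter through them, so the counts below describe the transcripts that passed and are not a test of the lists. Of the 52 tested genes, 50 had a difference below 0, 31 had every low array below every high array and 27 were past the size given above. Over all named genes these shares were 50.8%, 0.511% and 0.32%. Their median difference was -1.37. Fewer choroid cells in a sample and less RNA per choroid cell cannot be told apart in bulk tissue.

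Secreted and carrier proteins were lower as a group in the low arrays, with a median difference of -1.81 over 9 tested genes, 8 of them past the size. Ecrg4, which encodes the secreted peptide precursor augurin, had signals of 62.4 to 100.1 in the low arrays and 375.5 to 2135.3 in the high arrays, a 12.2-fold difference (-3.61 ± 0.35). Sostdc1, a secreted antagonist of BMP and Wnt signalling, had signals of 52.5 to 76.5 against 156.9 to 814.4 (-2.69 ± 0.33). F5, coagulation factor V, had signals of 8.7 to 25.3 against 31.1 to 178.1 (-2.25 ± 0.32). None of these 3 overlapped between the low and the high arrays. The 3 other tested probe sets of Ttr gave differences of -1.98, -2.33 and -3.40, so the size for Ttr depends on the probe set while the direction does not. Lbp, which binds bacterial lipopolysaccharide, differed by -1.81 ± 0.26 and the protease inhibitor Spint2 by -1.01 ± 0.18. The growth factor Igf2 had signals of 187.9 to 376.6 against 417.1 to 1110.7 (-1.37 ± 0.24), and its binding protein Igfbp2 had 187.3 to 303.4 against 401.8 to 1136.5 (-1.51 ± 0.24). Igf2 and Igfbp2 are made by meningeal and stromal cells as well as by the epithelium. Ceruloplasmin, Cp, the copper-carrying ferroxidase, overlapped, at 64.2 to 119.9 against 79.2 to 183.0 (-0.39 ± 0.20).

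Channels and transporters had a median difference of -1.80 over 19 tested genes, 10 of them past the size, and included the gene with the widest difference, Kcne2. Kcne2, a potassium channel beta subunit, had signals of 11.6, 3.7 and 2.2 in aged unimpaired replicates 3, 4 and 5, 12.3 in aged impaired replicate 5 and 8.9 in young replicate 6. The high arrays gave 82.7 to 442.9 with a median of 202.9, a difference of -4.18 ± 0.40. Kcne2 was nearly dark on the low arrays, so its size depends on the offset: it was -4.90 with an offset of 1 and -3.15 with one of 64. Kcnj13, the inward rectifier Kir7.1, had 15.8 to 69.2 against 197.4 to 924.5 (-3.44 ± 0.38). Folr1, the folate receptor that carries folate into cerebrospinal fluid, had 18.2 to 32.4 against 114.9 to 566.9 (-3.34 ± 0.32). Slc4a5, a sodium bicarbonate cotransporter, had 0.4 to 10.4 against 22.3 to 163.1 (-3.26 ± 0.35). Slc4a5 was also close to 0 on the low arrays, and its difference was -4.56 with an offset of 1 and -2.11 with one of 64. Steap1, of a family of metalloreductases, differed by -3.15 ± 0.34, Slc16a8, the epithelial lactate transporter MCT3, by -2.71 ± 0.31, and Clic6, a chloride intracellular channel protein, by -2.68 ± 0.29. Slc13a4, a sulfate transporter, differed by -1.78 ± 0.38. The copper transporter Slc31a1 had 56.5 to 72.1 against 86.0 to 214.1, also without overlap. The anion exchanger Slc4a2 separated the arrays without overlap at a smaller size, 103.7 to 126.7 against 153.2 to 308.4 (-0.96 ± 0.16).

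Not all transporters of the epithelium separated the arrays. Slc12a2, the sodium, potassium and chloride cotransporter NKCC1, had 786.3 to 1021.4 in the low arrays and 701.5 to 1563.1 in the high arrays (-0.26 ± 0.12). The efflux pump Abcg2 had 138.6 to 159.0 against 143.1 to 199.4 (-0.13 ± 0.07), and the calcium pump Atp2b3 had 1157.1 to 1488.8 against 1232.5 to 1931.9 (-0.28 ± 0.11). These ranges overlapped. As background, these transporters are also made by other brain cells: NKCC1 by glia and neurons, Abcg2 by brain endothelium and Atp2b3 by neurons. The carbonic anhydrases Car12 and Car14 lay between, at -0.66 ± 0.16 and -0.76 ± 0.17, and both overlapped. Abca4 and Trpv4 had wide differences of -1.80 ± 0.29 and -1.93 ± 0.32 and missed the no-overlap rule: the highest low array had 28.8 and the lowest high array 28.2 for Abca4, and 9.9 and 4.6 for the cation channel Trpv4.

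Receptors and signalling genes had a median difference of -0.84 over 9 tested genes, 3 of them past the size, Calml4 included. Kl, or klotho, the co-receptor for the hormone FGF23, had 94.9 to 117.1 in the low arrays and 186.1 to 647.5 in the high arrays (-1.91 ± 0.27). Rdh5, a retinol dehydrogenase, had 15.4 to 56.5 against 79.4 to 305.1 (-2.01 ± 0.31). The serotonin receptor Htr2c, abundant on choroid epithelium and also present on neurons, had 426.4 to 537.2 against 588.2 to 1084.5, a complete separation at a 1.74-fold ratio (-0.80 ± 0.11). The leptin receptor Lepr and the angiotensin-converting enzyme Ace overlapped on their brightest probe sets, with differences of -0.84 ± 0.24 and -1.38 ± 0.28. Lepr depended on the probe set. Another tested one had 0.9 to 9.9 against 11.3 to 34.3, without overlap (-1.33 ± 0.24), and a further one overlapped, at 0.07 ± 0.42. The interleukin-1 receptor Il1r1 showed little difference, at -0.14 ± 0.28.

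Of the 5 tested transcription factors 2 were past the size, and the list's median was -0.58. Otx2 had signals of 24.4, 10.1 and 32.5 in aged unimpaired replicates 3, 4 and 5, 22.8 in aged impaired replicate 5 and 27.7 in young replicate 6. The high arrays ran from 59.6 to 215.1 (-2.03 ± 0.29), so Otx2 split the arrays as the transport genes did. Msx1, a homeobox factor of the dorsal midline, had a median of 83.1 and at most 94.0 against 121.4 to 212.1 (-1.07 ± 0.14). The ciliary regulators did not separate the arrays: the difference was -0.58 ± 0.22 for Foxj1, -0.05 ± 0.41 for Rfx2 and 0.04 ± 0.14 for Rfx3, which is also listed here among dentate granule genes.

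Junction and epithelial genes had a median of -1.17 over 10 tested genes, 4 of them past the size. Cldn2, the claudin that forms the leaky, cation-permeable tight junctions of this epithelium, had 11.1 to 24.6 in the low arrays and 54.0 to 208.7 in the high arrays (-2.43 ± 0.30). Col8a1, a short-chain collagen, had a median of 12.9 in the low arrays against 31.3 to 187.5, without overlap (-2.57 ± 0.29), and the collagen chain Col9a3 had at most 56.4 against 83.1 to 233.8 (-1.48 ± 0.24). The membrane protein Perp differed by -1.20 ± 0.18. The keratin pair of simple epithelia, Krt8 and Krt18, overlapped slightly and differed by -1.04 ± 0.25 and -1.80 ± 0.32. Prom1, or prominin, was 132.8 to 146.5 in the low arrays, inside the high range of 103.3 to 157.4.

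The 15 genes past the size that stood on no choroid list were on no other list either. Defb11, a beta-defensin, had 1.1 to 12.5 in the low arrays and 28.4 to 169.9 in the high arrays (-3.06 ± 0.36). Wfdc2, a protease inhibitor of secretory epithelia, had 5.3 to 28.3 against 52.6 to 176.5 (-2.49 ± 0.32). Cox8b, a subunit of cytochrome c oxidase, had 19.9 to 33.8 against 53.8 to 392.2 (-2.40 ± 0.31), and Prr32 had 2.0 to 32.9 against 50.1 to 202.8 (-2.31 ± 0.35). The low arrays were near 0 for Defb11, and its difference was -4.37 with an offset of 1 and -1.87 with one of 64. The other 11 were the serine protease Tmprss11a (-1.99), Wdr86 (-1.97), the paraoxonases Pon1 (-1.94) and Pon3 (-1.04), the glutathione peroxidase family member Gpx8 (-1.79), the glucose transporter Slc2a12 (-1.69), the procollagen processing enhancer Pcolce (-1.48), the serpin Serpinb1b (-1.38), Slc16a9 of the monocarboxylate transporter family (-1.24), the fibroblast surface protease Fap (-1.22) and the matrix protein Frem1 (-1.05). A further 4 of the 64 probe sets are unnamed here.

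The separation was present inside each group of the study. Over the 52 choroid genes, the median difference between low and high arrays was -1.52 in the aged unimpaired group, with 3 low and 3 high arrays, and 50 genes were below 0. In the aged impaired group it was -1.47, with 1 low and 5 high arrays and 48 genes below 0. In the young group it was -1.12, again with 1 low and 5 high arrays and 50 genes below 0. For Kcne2 the difference was -4.71 in the aged unimpaired group, beside -3.38 in the aged impaired group and -4.04 in the young group.

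Among the high arrays the choroid signal was graded. The mean log2 value of the 51 tested choroid genes other than Calml4 ran from 7.60 to 7.97 in the low arrays and from 8.59 in young replicate 2 to 9.91 in aged impaired replicate 3 in the high arrays. Young replicate 2 was nearest to the low arrays in both Calml4 and this mean, and the next array, aged impaired replicate 4, stood at 8.94. The high arrays of each group spread across this range, from 8.94 to 9.91 in the aged impaired group, from 9.19 to 9.84 in the aged unimpaired group and from 8.59 to 9.76 in the young group.

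Tissues that adjoin the choroid plexus differed less between the low and high arrays than the choroid genes and overlapped. Ependyma, the ciliated lining of the ventricle, had a median difference of -0.40, with all 16 tested genes below 0 and 0 separating the arrays. For comparison, 50.8% of all named genes were below 0 and 0.511% separated the arrays in that direction. Dynlrb2, a dynein light chain of motile cilia, had signals of 56.9 to 86.4 in the low arrays and 73.8 to 192.1 in the high arrays (-0.79 ± 0.19). Pifo, a ciliary protein, had 28.3 to 45.6 against 43.1 to 119.5 (-0.95 ± 0.21). The mean log2 value of the list was 7.14 to 7.55 in the low arrays, and 11 of the 13 high arrays lay above all of these. The other two high arrays, at 7.29 in young replicate 2 and 7.49 in aged unimpaired replicate 2, lay within the low range.

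Meningeal fibroblast and matrix genes had a median difference of -0.35, with 19 of 21 genes below 0 and 0 separating the arrays. Col1a1, a chain of fibrillar collagen, had 4.5 to 33.0 against 14.3 to 79.6 (-0.78 ± 0.24), and Dcn, the matrix proteoglycan decorin, had 264.6 to 570.2 against 347.7 to 839.8 (-0.71 ± 0.20). The list mean was 8.05, 8.18 and 8.18 in aged impaired replicate 5 and aged unimpaired replicates 3 and 4, below every high array. In aged unimpaired replicate 5 and young replicate 6 it was 8.85 and 8.80, inside the high range of 8.32 to 9.39. So 2 of the 5 arrays with little choroid signal kept a meningeal signal like that of the high arrays. Border macrophage genes had a median of -0.35, with 7 of 7 below 0 and 0 separating the arrays. Their list mean was 7.39 in aged unimpaired replicate 5, above 12 of the 13 high arrays, and 6.39, 6.54 and 6.58 in aged impaired replicate 5 and aged unimpaired replicates 3 and 4, below every high array. Mrc1, the mannose receptor of these macrophages, had 51.3 in aged unimpaired replicate 5 and 15.6 in aged impaired replicate 5, beside 27.6 to 63.8 in the high arrays. The part of meningeal and macrophage RNA in the choroid differences was not tested.

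**Figure D3:**
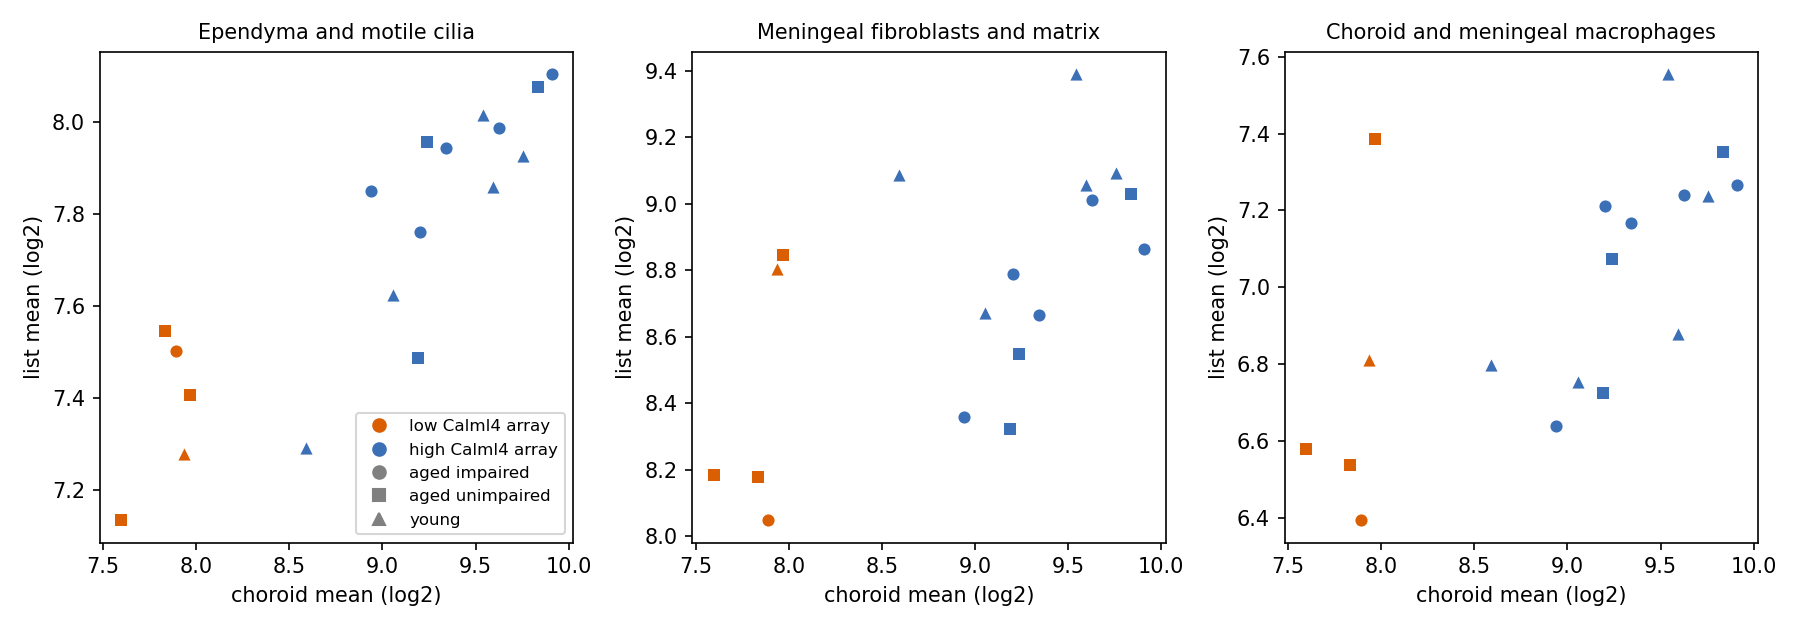
Mean log2 value of the ependymal, the meningeal and the border macrophage list (vertical axes) against the mean of the 51 choroid genes other than Calml4 (horizontal axis), 1 point per array, low Calml4 arrays in orange, high in blue, marker shape by group. The low arrays span 8.05 to 8.85 in the meningeal mean, where 2 of them reach into the high range, while they span 7.14 to 7.55 in the ependymal mean.

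Transcripts of the other neighbouring brain regions did not divide the arrays in the same way. The median difference was -0.02 over 16 genes of thalamus and habenula, -0.08 over 10 genes of striatum and septum and 0.12 over 10 genes of neocortex. The transcription factor Zic1, here on the thalamic list and also made by meninges and septum, differed by -0.75 ± 0.24, and Slc17a6, the vesicular glutamate transporter VGLUT2 of thalamic neurons, by 0.43 ± 0.15. Among the region lists, 1 gene separated the arrays: Ppp1r1b, or DARPP-32, a phosphatase inhibitor of dopamine-receptive neurons, at 187.6 to 226.4 in the low arrays and 240.4 to 400.8 in the high arrays (-0.55 ± 0.11). The widest difference on the striatal list was that of Rxrg, at -0.71 ± 0.25, with overlap. Drd1, a dopamine receptor of striatal neurons, had a difference above 0, at 0.34 ± 0.22, with overlap.

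Hippocampal neurons and glia showed small differences. The median was 0.05 for CA1 genes, 0.06 for CA2 and CA3 genes, 0.08 for dentate granule genes and 0.08 for general neuronal genes. Of the dentate and the general neuronal genes, 0 of 11 and 0 of 12 were below 0, beside 50.8% of all named genes. The sign counts of the lists in this paragraph were not tested. On the CA2 and CA3 list, 3 of 12 genes were below 0, among them Coch, a secreted matrix protein, at -0.90 ± 0.20. Myelin genes had a median of 0.05, astrocyte genes -0.08, endothelial genes -0.05 and mural cell genes -0.03. Microglial genes had a median of -0.14 with 13 of 13 below 0, and the list mean overlapped fully, at 9.51 to 10.1 in the low arrays and 9.48 to 10.6 in the high arrays. The 4 blood cell genes had a median of 0.25, and the blood list mean reached 8.74 in aged unimpaired replicate 3, above every other array.

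The 5 transcripts with every low array above every high array differed by under 1 log2 unit. They were Dclk3, a doublecortin-like kinase, at 122.8 to 161.1 against 83.8 to 122.0 (0.47 ± 0.09), the secretory granule protein Chgb at 4548.6 to 4926.6 against 3483.7 to 4203.4 (0.28 ± 0.06), the calcium channel beta subunit Cacnb1 (0.23 ± 0.07), the guanine nucleotide exchange factor Rasgrp1 (0.22 ± 0.06) and the phosphatase Mtmr1 (0.15 ± 0.06).

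**Figure D4:**
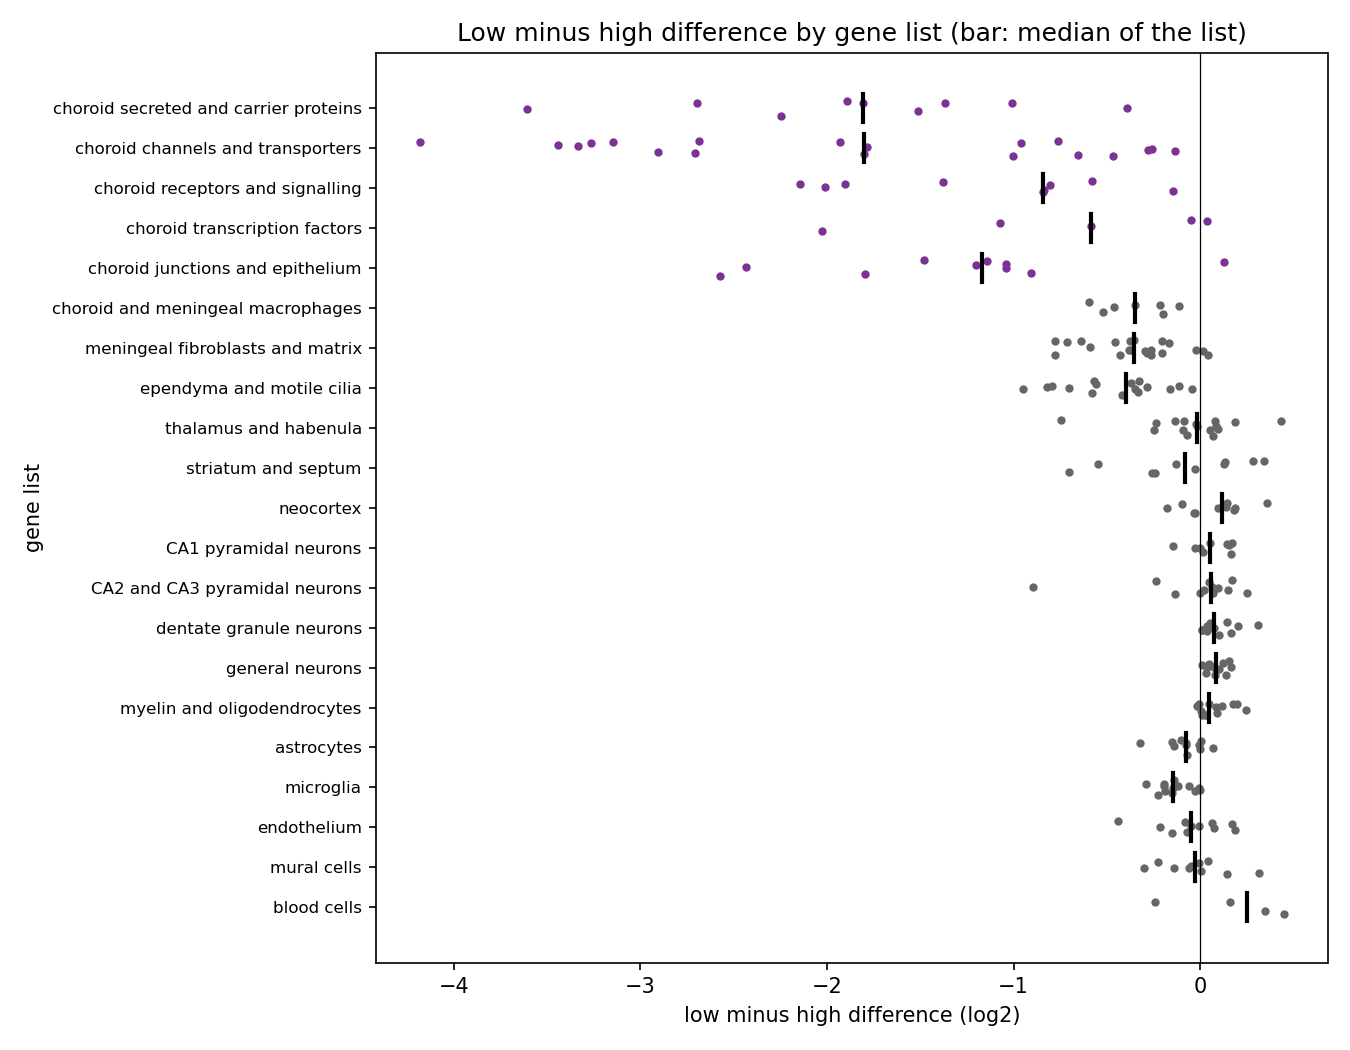
Low minus high difference (log2, horizontal axis) of each tested gene, by gene list (vertical axis), with the choroid epithelial lists in purple, all other lists in grey and a black bar at each list's median. The choroid list medians lie between -1.81 and -0.58, those of ependyma, meninges and border macrophages between -0.40 and -0.35, and those of hippocampal neurons near 0.

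Which other transcripts follow the choroid signal was asked in the 13 high arrays alone. The threshold chose these arrays but did not use the differences among them. The slope of each probe set on the choroid mean was fitted with the 3 groups as a covariate (limma, 2-sided, Benjamini-Hochberg over 27022 probe sets). A slope of 1 means that the log2 value moved 1 for 1 with the choroid mean. Outside the choroid lists 94 of 26933 probe sets rose with the choroid mean, or 0.349%, and 4 fell, or 0.0149%. In named genes, counted by their brightest probe set, these were 57 that rose, or 0.436% of the named genes outside the choroid lists, and 3 that fell, or 0.023%. Of the 15 genes on no list that were past the size between low and high arrays, 10 rose here.

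The transcripts of lowest p among those that rose were the following. Defb11 had a slope of 1.66 ± 0.16 (limma adjusted p = 0.000476), Wfdc2 one of 1.35 ± 0.14 (limma adjusted p = 0.000808), Slc2a12 one of 1.13 ± 0.12 (limma adjusted p = 0.000835) and Prr32 one of 1.20 ± 0.14 (limma adjusted p = 0.00158). All 4 were also past the size between low and high arrays. Others rose that had not met the low and high rule on their brightest probe set: Cd59a, a complement inhibitor (0.97 ± 0.12), the collagen processing enhancer Pcolce2 (0.93 ± 0.11), Smim22, a small membrane protein (1.28 ± 0.16), the secreted phospholipase Pla2g5 (1.29 ± 0.16), the cell cycle inhibitor Cdkn1c (1.27 ± 0.17), the collagen chain Col8a2 (1.38 ± 0.18) and the semaphorin Sema3b (1.46 ± 0.21). The tight junction proteins F11r and Ocln also rose, by 0.79 ± 0.11 and 0.59 ± 0.09, and so did Cgnl1, a cingulin-like junction protein, by 0.91 ± 0.17. F11r, Ocln and Cgnl1 were picked from the called genes, and junction genes were not tested as a set. Between low and high arrays Ocln differed by only -0.22 ± 0.12, beside -0.66 ± 0.17 for F11r and -0.66 ± 0.20 for Cgnl1. The thyroxine transporter Slco1c1, made by brain endothelium and choroid plexus, rose by 0.55 ± 0.09 (limma adjusted p = 0.0130). It was 1 of 11 genes of the endothelial list to pass, and that list's median slope was -0.01.

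Of the ependymal list 1 gene of 16 passed. This was Dynlrb2, at 0.90 ± 0.14 (limma adjusted p = 0.0114), and Cfap52, Cfap161 and Spag8, of sperm and motile cilia, on no list here and picked from the called genes, passed with slopes of 1.01 ± 0.16, 0.89 ± 0.16 and 1.31 ± 0.23. Spag8 was not lower in the low arrays, at 0.02 ± 0.34, while Cfap52 and Cfap161 differed by -0.45 ± 0.22 and -0.57 ± 0.20. Bmp6, a bone morphogenetic protein, rose by 0.67 ± 0.13 at the edge of the threshold (limma adjusted p = 0.0499). Of the meningeal genes limma called 0 of 21 (8 at an unadjusted p under 0.05), of the macrophage genes 0 of 7 (3 unadjusted), and of 79 genes of neighbouring regions and hippocampal neurons 0 (14 unadjusted). Their median slopes were 0.37 for the meningeal and 0.57 for the macrophage list, beside 0.62 for ependyma and 0.001 for all named genes. Among the choroid genes themselves, which form the mean and get no test, the median slope was 1.03. Ttr had 0.38 on its brightest probe set and 0.50, 0.58 and 0.85 on its other tested probe sets.

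The count of called slopes, rising and falling together, rested on a few arrays. Of the 98 probe sets called outside the choroid lists, the count was 22 without young replicate 2, 44 without aged unimpaired replicate 6, 52 without aged impaired replicate 4, 64 without aged impaired replicate 3 and 65 without young replicate 4. Without both young replicate 2 and aged impaired replicate 3, the arrays farthest from the median, 2 probe sets were called, those of Wfdc2 and Pcolce. Defb11 then had an adjusted p of 0.0697 (limma).

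The study's own comparisons, of aged impaired, aged unimpaired and young mice, meet the split unevenly, because 3 of the 6 aged unimpaired arrays were low. Without the split in the fit, the 52 choroid genes had a median difference of 0.52 between aged impaired and aged unimpaired samples, with 50 genes above 0, and of -0.40 between aged unimpaired and young samples, with 6 above 0. With the split as a covariate the medians were 0.02 and 0.02, with 29 above 0 in each. The split was made on a choroid transcript that is itself among the 52, so the covariate takes choroid differences out of these comparisons by construction, and the medians near 0 are no test. For Ttr the difference between aged impaired and aged unimpaired samples was 0.76 ± 0.51 without the split and 0.13 ± 0.24 with it. In the 13 high arrays alone the choroid medians were -0.01 and 0.09, with a median standard error of 0.34. These arrays were kept by the same choroid transcript, so these medians are no test either. The median standard error of a choroid gene was 0.42 without the split and 0.27 with it, and in neither fit was a choroid gene called in these 2 comparisons by limma: the counts at an unadjusted p under 0.05 were 1 and 3 of 52 with the split and 2 and 1 without it. Between aged impaired and young samples, which had 1 low array each, the difference of every gene is the same in both fits and only its error moves.

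With the split, limma called 3 probe sets between aged impaired and aged unimpaired samples (0.0111% of 27022), 36 between aged unimpaired and young samples (0.133%) and 439 between aged impaired and young samples (1.62%). Without it the counts were 3, 37 and 440, of which 2, 28 and 401 were shared. In the 13 high arrays alone they were 2, 14 and 130. The clock transcription factor Dbp was the named gene called between aged impaired and aged unimpaired samples, at 0.62 ± 0.08 (limma adjusted p = 0.0129, and 0.000583 to 0.244 over its alternatives); it was not called with no filter (0.0714), with the replicate block (0.244) or without aged unimpaired replicate 1, 2 or 6. Dbp did not differ between low and high arrays, at 0.00 ± 0.07.

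Among the 80 genes that were lower in the low arrays by at least 1 log2 unit, overlap ignored (0.61% of named genes), a sulfotransferase pair was higher in aged impaired than in young samples. With the split, 3 of these 80 genes rose between young and aged impaired samples and 1 rose between young and aged unimpaired samples, beside 1.33% and 0.137% of all named genes. Sult1c1, a cytosolic sulfotransferase, had signals of 41.5, 152.6, 89.9, 65.9 and 66.6 in the 5 high aged impaired arrays, 34.9, 61.3 and 124.3 in the 3 high aged unimpaired arrays, and 12.5, 11.3, 23.5, 17.7 and 17.9 in the 5 high young arrays. Every high aged array was therefore above every high young array. In the low arrays Sult1c1 was 7.8 in aged impaired replicate 5, 8.1, 8.1 and 15.8 in aged unimpaired replicates 3, 4 and 5, and 1.1 in young replicate 6. With the split, Sult1c1 was higher in aged impaired than in young samples by 1.81 ± 0.29 (limma adjusted p = 0.00410), and it passed in the high arrays alone at 1.95 ± 0.34 (limma adjusted p = 0.0278). Without the split the limma adjusted p was 0.150. This was the only one to lose the call among 28 alternatives with a value for Sult1c1, of 29 for this comparison. Sult1c1 was dim on the high young arrays, and the added offset shrinks the differences of dim transcripts. Its difference ran from 1.27 to 2.27 over the alternatives other than leaving out 1 array. Between aged unimpaired and young samples it was higher by 1.68 ± 0.31 (limma adjusted p = 0.0392), a call that 20 of 28 alternatives lost, among them the fit without the split (0.733) and that of the high arrays alone (0.332).

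Sult1c2, a related sulfotransferase, had 35.3, 44.2, 74.3, 27.2 and 26.8 in the high aged impaired arrays, 27.7, 30.3 and 32.3 in the high aged unimpaired arrays and 19.5, 10.1, 9.8, 14.5 and 14.2 in the high young arrays. The high aged and high young arrays again did not overlap. It was higher in aged impaired than in young samples by 1.35 ± 0.22 (limma adjusted p = 0.00405), in the high arrays alone by 1.27 ± 0.23 (limma adjusted p = 0.0317), and without the split it was not called (adjusted p = 0.137). Sult1c2 was also dim on the high young arrays. Its difference between aged impaired and young samples ran from 0.83 to 1.81 over the alternatives other than leaving out 1 array. The difference between aged unimpaired and young samples, 0.78 ± 0.23, was not called (limma adjusted p = 0.343). Each gene was read by 1 probe set, and whether either probe set also reads the related transcript was not tested. Neither gene was called by its slope on the choroid mean, at 0.78 for Sult1c1 and 0.64 for Sult1c2 (limma adjusted p = 0.514 and 0.367).

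A further 2 genes gave borderline calls. Bst2, or tetherin, an interferon-induced membrane protein, was 59.4 to 95.9 in the high young arrays and 86.3 to 169.1 in the high aged impaired arrays, which overlap. Its difference between aged impaired and young samples was 0.63 ± 0.15 with the split (limma adjusted p = 0.0473), and 19 of 29 alternatives lost that call, among them leaving out young replicate 6 (0.114). Slc12a2 was the 1 of 52 choroid genes called, at 0.54 ± 0.12 between aged impaired and young samples (limma adjusted p = 0.0345, and 0.0503 without the split). Of all named genes 1.33% rose in that comparison, so this single call says nothing about the choroid genes as a set. The Slc12a2 call was lost in 14 of 29 alternatives, among them leaving out young replicate 1 (0.0737). Meningeal genes had median differences of -0.40 between aged impaired and young samples and -0.37 between aged unimpaired and young samples with the split, beside -0.003 and -0.005 over all named genes.

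**Figure D5:**
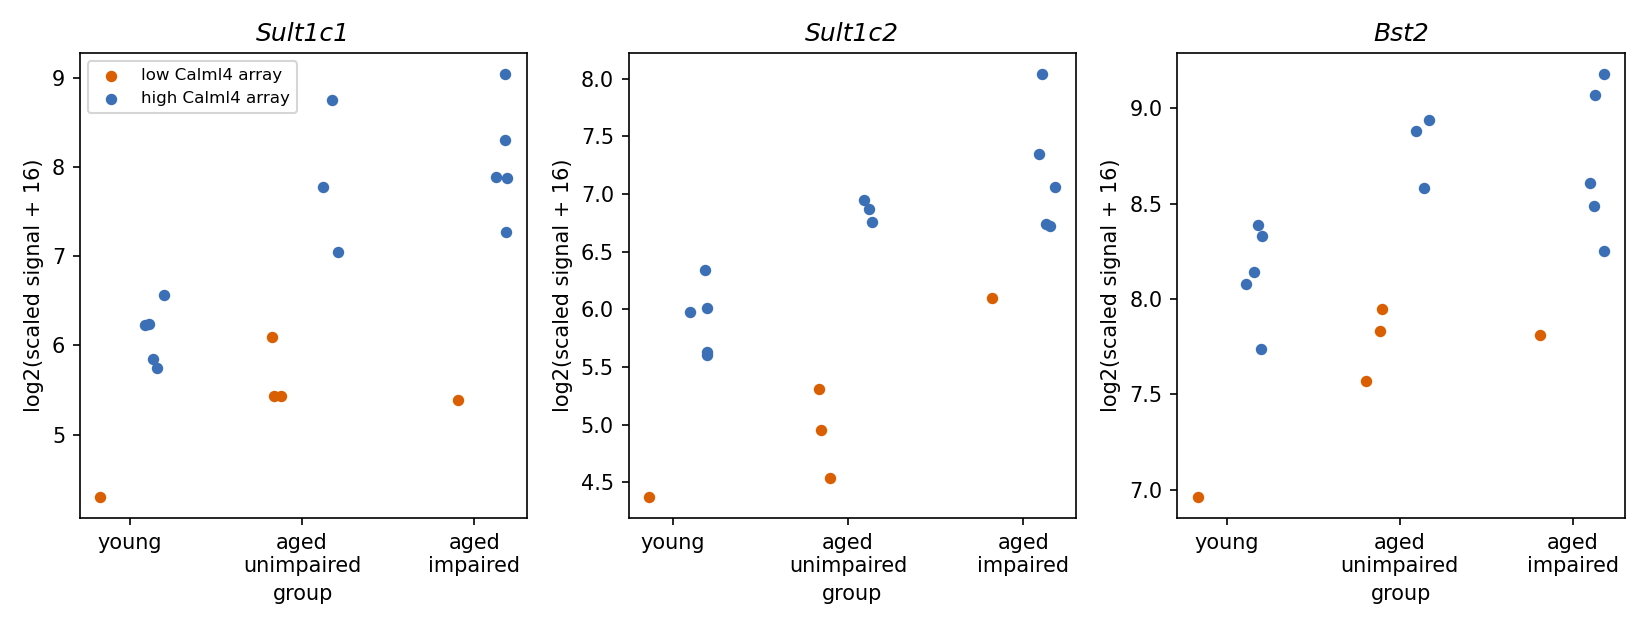
Log2(scaled signal + 16) of Sult1c1, Sult1c2 and Bst2 (vertical axes) by group (horizontal axis), 1 point per array, low Calml4 arrays in orange and high in blue. For both sulfotransferases the high aged arrays lie above the high young arrays, from a deposited signal of 34.9 against at most 23.5 for Sult1c1, and the low arrays of each group lie below the high arrays of that group.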

How the data were processed

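Signal intensity per probe set, on a linear scale, was used as the authors deposited it; the submitters' processing notes name MAS5 and no version. The table holds 45101 probe sets, with a 2%-trimmed mean of 150.0 on every array. Arrays give no read depth; their number sets the precision. Signals were rescaled to bring that mean to 500, then 16 was added and log2 taken. The 64 control probe sets and the 40% of lowest mean were left out, which left 27022. In the platform annotation 34945 probe sets have 1 symbol, 932 several and 9160 none; a probe set without exactly 1 symbol is unnamed here. Symbols were updated through RefSeq (GRCm38.p6; 34741 matched), and promoters came from RefSeq GRCm38.p6. A gene is read on its tested probe set of highest mean.

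Models with 3 group means and the low or high split were fitted to log2 values in limma 3.58.1 (R 4.3.3), with calls at a Benjamini-Hochberg adjusted p below 0.05; the fits were tested on simulated data. Errors after ± are standard errors. The rule for arrays, the gene lists and the rule for genes to name were chosen with earlier results of these data known. The naming rule took marker genes, all choroid list genes, the widest differences, 3 genes of each other list and the lowest p of each comparison and slope. Not all genes it took are described above, among them the choroid genes Trpm3, Cab39l, Vat1l, Slc29a4, Cldn1 and Tjp3. Of these, Cab39l and Vat1l separated the arrays without overlap, at -0.84 ± 0.18 and -0.91 ± 0.17. Trpm3 overlapped on its brightest probe set (-0.58) and did not on another (-2.20). Cdkn1c, Col8a2, Sema3b, the junction, cilia and Bmp6 slopes, Bst2 and Slc12a2 were picked after their values were seen. Results were recomputed with quantile normalization, an offset of 1 or 64, no filter or one of 60%, RNA quality or sample number as covariates, no group covariate, size alone, the split on Ttr, array weights, trended moderation, no split, high arrays only, and leaving out each array.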

Additional observations from a re-analysis of the deposited data

Results flagged for a closer look

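In 84 sets of 6 arrays, each a list mean or a named gene in 1 group, 6 had a highest or lowest array set far apart from the nearest of the others for the range of the group; chance gives about 5% of such sets. The astrocyte list mean (log2) was 11.862 in aged impaired replicate 5, a low Calml4 array, beside 12.037 to 12.123 in the rest of its group. It was 12.116 in aged unimpaired replicate 6 beside 11.966 to 12.015, and 12.108 in young replicate 3 beside 11.863 to 11.945. The microglial list mean was 10.531 in aged unimpaired replicate 6 beside 10.011 to 10.135. Sult1c1 was 4.298 (log2) in young replicate 6, the low array of the young group, beside 5.746 to 6.56 in the rest, and Sult1c2 was 4.369 there beside 5.605 to 6.34. The cause was not tested for any of these.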

How the results depend on the processing

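The low minus high differences of 38 named genes were recomputed 1023 times. Of these values, 1011 stayed within 1 residual SD, 12 moved further and 0 changed sign. The filter settings and the split on Ttr leave such a difference the same by construction. These genes were also picked for wide or non-overlapping differences, so the counts are no test of them. The choroid median stayed between -1.49 and -1.11. The count of 64 probe sets became 132 by size alone and stayed between 45 and 85 otherwise, 60 to 85 with 1 array left out. Counts called by limma moved more. For aged impaired minus aged unimpaired, the 3 calls became 0 with no filter (2520 at an unadjusted p under 0.05), 1 with the RNA quality covariate and 0 with the replicate block (1629 unadjusted), and lay between 0 and 4 with 1 array left out, at 0 without aged unimpaired replicate 1, 2 or 6 (1486, 1437 and 1783 unadjusted) and at 1 without aged impaired replicate 1, 3, 4 or 6, aged unimpaired replicate 4 or young replicate 2, 3, 4 or 6. For aged unimpaired minus young, the 36 became 18 with no filter, 15 with RNA quality, 14 in the high arrays only and 61 with trended moderation, and 16 to 38 with 1 array left out, under 24 without aged unimpaired replicate 3 (21), 4 (20) or 6 (21) or young replicate 3 (22), 5 (22) or 6 (16). For aged impaired minus young, the 439 became 198 with no filter, 222 with the replicate block and 130 in the high arrays only, and 229 to 472 with 1 array left out, lowest without aged impaired replicate 2 (285), 3 (287) or 6 (238) or young replicate 5 (272) or 6 (229). The 98 slopes became 52 with no filter, 0 with the replicate block (2196 unadjusted), 2 without the 2 arrays farthest from the median, and 22 to 92 with 1 array left out. The cause of these moves was not tested, apart from the fewer arrays of those fits. The replicate numbers do not pair the samples: over 18 same-numbered pairs the correlation of deviations ran from -0.247 to 0.0957, and 0 of 18 arrays correlated best with their own number. Signals near 0 on the low arrays limit the differences of the dimmest transcripts.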
